A study of Mus musculus with 3 samples.

Results

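Tnfaip2 (ENSMUSG00000021281.15) is 1 of 55536 annotated genes, and 1 of 22028 protein-coding genes, measured here in chromatin-bound RNA of activated macrophages. It was selected on its level in these libraries, so its level and its rank are given as a description, without a test. The cells were macrophages cultured from bone marrow of C57BL/6J mice. All of them had received 100 ng/ml of lipid A, the lipid part of bacterial endotoxin, for 120 min. RNA of the chromatin fraction was depleted of ribosomal RNA and sequenced as total RNA, in fragments of 250 to 400 nt. There is 1 group, of 3 libraries numbered as biological replicates. The labels give them the same donor entry, so the spread between these libraries, which the p-values below draw on, may be technical. Unstimulated cells are not analysed here, so a level says nothing of induction.

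Tnfaip2 encodes TNF alpha-induced protein 2, also called M-Sec, a cytosolic protein related to the Sec6 subunit of the exocyst. It is known for driving the outgrowth of membrane nanotubes, thin actin-based bridges between cells, together with the small GTPase RalA and the exocyst. Lipid A is sensed by the receptor TLR4, which turns on the transcription factor NF-kB and an interferon response. RNA held on chromatin is rich in transcripts that are still being made or spliced, so it contains introns that cytoplasmic mRNA lacks.

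The 3 libraries held 19751051, 20372850 and 21984526 expected counts in annotated genes, in replicates 1, 2 and 3. They were made from 1 µg, 250 ng and 500 ng of RNA. Of 10 macrophage markers, 10 reached 1 TPM, and their summed level was highest in replicate 2, with 556, 906 and 562.5 TPM in replicates 1, 2 and 3. Cd68 had 16.4, 127 and 16.8 TPM in those libraries. Endothelial markers, relevant because Tnfaip2 is also known from endothelium, summed to 21.7 to 30.1 TPM, nearly all of it from Vwf and Kdr. Of the others in that list, Pecam1 and Cdh5 stayed under 1 TPM, and Emcn and Tek were at 0. Markers of T cells summed to 1.84 to 6.14 TPM, mostly Cd4, with Cd3e and Cd3g at 0. Those of B cells, neutrophils, dendritic cells and stroma each summed to under 2 TPM in every library, with Ly6g, Elane, Cxcr2 and Cd209a at 0. The second quantifier gave higher values for some of these markers. In replicates 1, 2 and 3 the T cell marker Cd3d had 6.39, 6.43 and 10.2 TPM with it. The endothelial marker Pecam1 had 5.41, 5.44 and 9.39 TPM, and the neutrophil marker Cxcr2 had 3.36, 3.13 and 5.25 TPM. The B cell marker Ebf1 had a mean of 2.14 TPM. Fewer cells of a type and less RNA per cell cannot be told apart in such samples, and the part of these markers in the results on Tnfaip2 was not tested.

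Tnfaip2 lies on the plus strand of mouse chromosome 12 at chr12:111442469-111455018 of mm10. Its level was 1165, 1363 and 1507 TPM in replicates 1, 2 and 3, a mean of 1345 ± 172 TPM (SD, n = 3). TPM divides read counts by transcript length and scales each library to the same total. Replicate 3 was highest and replicate 1 lowest on this scale. With the TPM total given to protein-coding genes alone, Tnfaip2 had 6494, 5749 and 6194 TPM, so replicate 1 was then highest and replicate 2 lowest. The expected counts were 69873, 78529 and 79387, or 75930 ± 5263. Those counts made up 0.354%, 0.385% and 0.361% of all annotated counts, with exact 95% Clopper-Pearson intervals of 0.351 to 0.356%, 0.383 to 0.388% and 0.359 to 0.364%. The intervals cover counting error only. Among counts of protein-coding genes alone the share was 0.638 ± 0.033%. After trimmed-mean (TMM) scaling of library sizes the gene had 3889, 3844 and 3294 CPM, so replicate 3, highest by TPM, was lowest on that scale. The authors also deposited transcript estimates from a second quantifier, which works directly on the reads. With it Tnfaip2 had 1774, 1460 and 2189 TPM, or 1808 ± 366 TPM, and replicate 2 was lowest.

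By mean TPM the gene stood at rank 2 of the 22028 protein-coding genes, and at rank 2, 3 and 3 in replicates 1, 2 and 3. Mx1, an interferon-induced antiviral GTPase, was above it in each library, with 1841, 1996 and 2908 TPM. Lilrb4a, an inhibitory immunoglobulin-like receptor of myeloid cells, was above it in replicate 3 alone, at 1673 TPM. mt-Atp8, a mitochondrially encoded subunit of ATP synthase, passed it in replicate 2 alone, at 1483 TPM. The ranges of Tnfaip2 and Mx1 did not overlap.

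The genes next below in mean TPM had ranges over libraries that overlapped that of Tnfaip2. They were Lilrb4a at 1224 ± 417 TPM, the large ubiquitin ligase gene Rnf213 at 1204 ± 183 TPM, and the interferon-induced viperin gene Rsad2 at 1124 ± 348 TPM. Then came Lilr4b at 1063 ± 174 TPM and Parp14, an ADP-ribosyltransferase gene, at 1033 ± 329 TPM. Lilrb4a and Lilr4b are close paralogs whose reads may have been divided between them, so their own levels are uncertain. Compared within libraries, Rnf213, Rsad2, Lilr4b and Parp14 were below Tnfaip2 in 3 of 3. The log2 difference of Lilr4b from Tnfaip2 was steadiest of these, at -0.38, -0.37 and -0.28, while that of Rsad2 was -0.60, -0.25 and -0.04. With the second quantifier the rank was again 2 by mean TPM, and in replicate 3 Tnfaip2 had 2189 TPM against 2488 TPM for Rsad2.

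**Figure D1:**
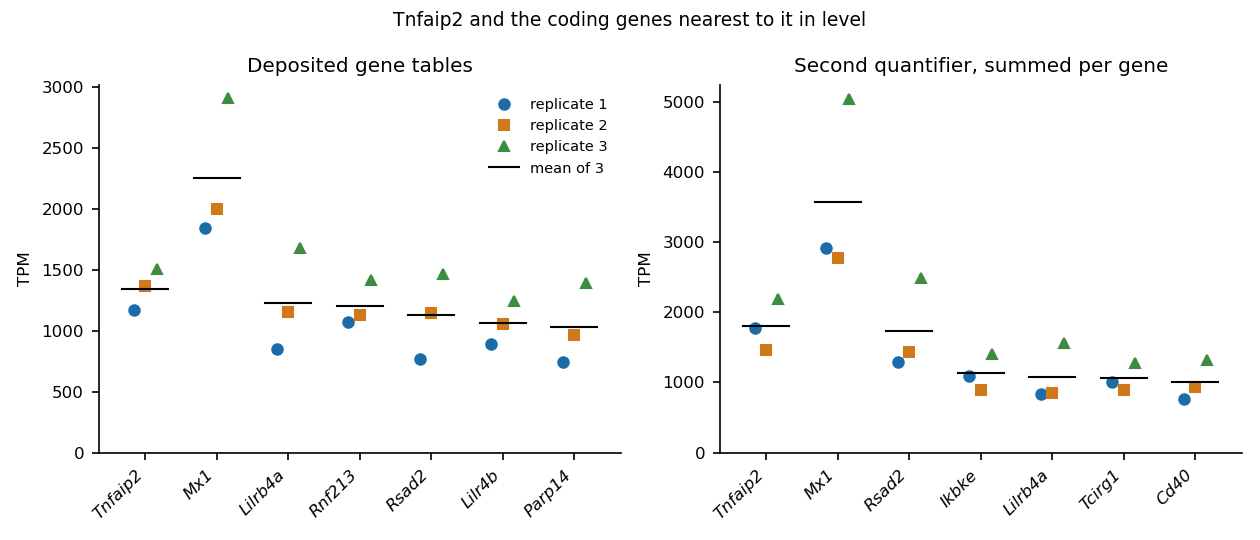
TPM of Tnfaip2 and of the coding genes nearest to it in mean TPM, for the deposited gene tables (left) and the second quantifier (right, own axis). Points are libraries and lines are means of 3. Mx1 lies above Tnfaip2 in each library with both quantifiers, and the ranges of the next genes on the left overlap that of Tnfaip2.

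The rank depended on dividing by length. By expected counts Tnfaip2, at 75930 ± 5263 counts, stood at rank 5. Above it were Rnf213 (395687 ± 45211 counts), Ahnak (235708 ± 17864 counts), Parp14 (93116 ± 26972 counts) and Rsad2 (88989 ± 25519 counts). Ahnak encodes a very large scaffold protein. Isoforms shorter than 1000 nt also weigh on it. When only isoforms of at least 1000 nt were summed in every gene, a choice made after seeing the data, Tnfaip2 had 791, 1025 and 974 TPM and stood at rank 6. Its mean was then 930 ± 123 TPM, and Mx1 (1362 ± 318 TPM), Lilrb4a, Rnf213, Rsad2 and Lilr4b had higher means.

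The annotation gives Tnfaip2 11 isoforms, of which 3 are protein-coding, 4 are labelled as retaining an intron and 4 as targets of nonsense-mediated decay, the pathway that degrades transcripts with an early stop codon. Tnfaip2-201 is the longest complete coding form, with 12 exons and 3762 nt, and its introns are numbered here from the gene's start. Tnfaip2-207, of 3889 nt, follows it nearly from end to end but keeps all of intron 5, 169 nt, and 491 nt of the 591 nt of intron 6. Tnfaip2-202, also coding, differs inside the gene by an exon that begins 51 nt earlier, within intron 5. Tnfaip2-206, Tnfaip2-204 and Tnfaip2-203 are short models that hold 112 nt of intron 4, 248 nt of intron 7 and 164 nt of intron 8. The retained stretches thus fall in introns 4 to 8. The short coding model Tnfaip2-205, of 398 nt, begins at an exon of its own within intron 1 and its coding sequence is annotated as incomplete.

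Intron 5 and the stretch of intron 7 are shown because they set the most abundant intron-retaining models apart from Tnfaip2-201. Both are read 5′ to 3′ on the plus strand from the GENCODE M21 transcripts (GRCm38, the build called mm10), intron 5 at chr12:111448370-111448538 and the stretch of intron 7 at chr12:111449518-111449765. In intron 5 the capitals mark the 51 nt that Tnfaip2-202 also keeps, and in intron 7 the last 2 bases of the intron.
Intron 5, in Tnfaip2-207: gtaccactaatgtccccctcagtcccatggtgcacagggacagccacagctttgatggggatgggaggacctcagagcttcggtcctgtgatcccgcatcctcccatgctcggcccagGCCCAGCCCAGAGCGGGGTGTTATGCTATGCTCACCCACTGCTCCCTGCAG
Intron 7 stretch, in Tnfaip2-204: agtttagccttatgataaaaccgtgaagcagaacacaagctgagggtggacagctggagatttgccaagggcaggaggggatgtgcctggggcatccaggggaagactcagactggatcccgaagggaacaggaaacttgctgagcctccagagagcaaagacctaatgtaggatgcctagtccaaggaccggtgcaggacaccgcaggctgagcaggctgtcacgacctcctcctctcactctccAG
Intron 5 opens with GT and closes with AG, the usual ends of an intron. The 2 bases just before its capitals are AG as well, which is where the exon of Tnfaip2-202 begins. G and C made up 62.1% of intron 5 and 56.1% of the intron 7 stretch, beside 56.3% of the spliced Tnfaip2-201.

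Tnfaip2-201 had 520, 621 and 538 TPM in replicates 1, 2 and 3, or 42.0 ± 5.43% of the gene's TPM. Tnfaip2-207 had 241, 358 and 408 TPM, or 24.7 ± 3.45%. Tnfaip2-201 was thus above the long intron-retaining form in every library, and their ranges did not overlap. The gap between them was narrowest in replicate 3. Most of the sequence of both models is shared, so the division rests on reads over introns 5 and 6, the splice junctions there and the longer ends of Tnfaip2-201. The other complete coding form, Tnfaip2-202, had 29.6, 45.4 and 27.7 TPM, or 2.57 ± 0.746%.

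Tnfaip2-205 had 116, 66.9 and 280 TPM, or 11.1 ± 6.90%, and varied most among the 3 leading forms. Its length after allowing for fragment size was 149 to 190 nt, so few reads carry much TPM. It took 520, 211 and 981 expected counts, which were 0.749 ± 0.484% of the gene's counts. The short intron-bearing models were steadier. Tnfaip2-204 had 100, 118 and 122 TPM (8.44 ± 0.297%), Tnfaip2-206 had 77.0, 95.8 and 82.8 TPM (6.38 ± 0.794%), and Tnfaip2-203 had 15.1, 17.8 and 21.4 TPM (1.34 ± 0.068%). Of the decay-labelled forms, Tnfaip2-209 had 55.2, 38.4 and 25.3 TPM and Tnfaip2-208 had 10.4, 1.86 and 1.27 TPM. Tnfaip2-210 had 0, 0.68 and 0.35 TPM, and Tnfaip2-211 was listed at 0 in each library.

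In order of mean TPM, Tnfaip2-207 and Tnfaip2-205 overlapped between libraries, as did Tnfaip2-205 and Tnfaip2-204, Tnfaip2-209 and Tnfaip2-202, and Tnfaip2-210 and Tnfaip2-211. The other neighbours in that order did not overlap. Within libraries Tnfaip2-207 was above Tnfaip2-205 in 3 of 3. The deposited tables also hold a posterior standard deviation of each count, a measure of how firmly reads were assigned. It was 6.18 to 8.21 counts for the whole gene, but 247 to 312 counts for Tnfaip2-201 and 58.2 to 74.4 counts for Tnfaip2-205. Within that model the gene's total was thus less uncertain than its division among isoforms. The deposited TPM bounds of the gene, 1077 to 1145, 1252 to 1327 and 1382 to 1469 in replicates 1, 2 and 3, lie below the 1165, 1363 and 1507 TPM printed here in each library. Their confidence level is not given, and the reason for the offset was not tested.

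**Figure D2:**
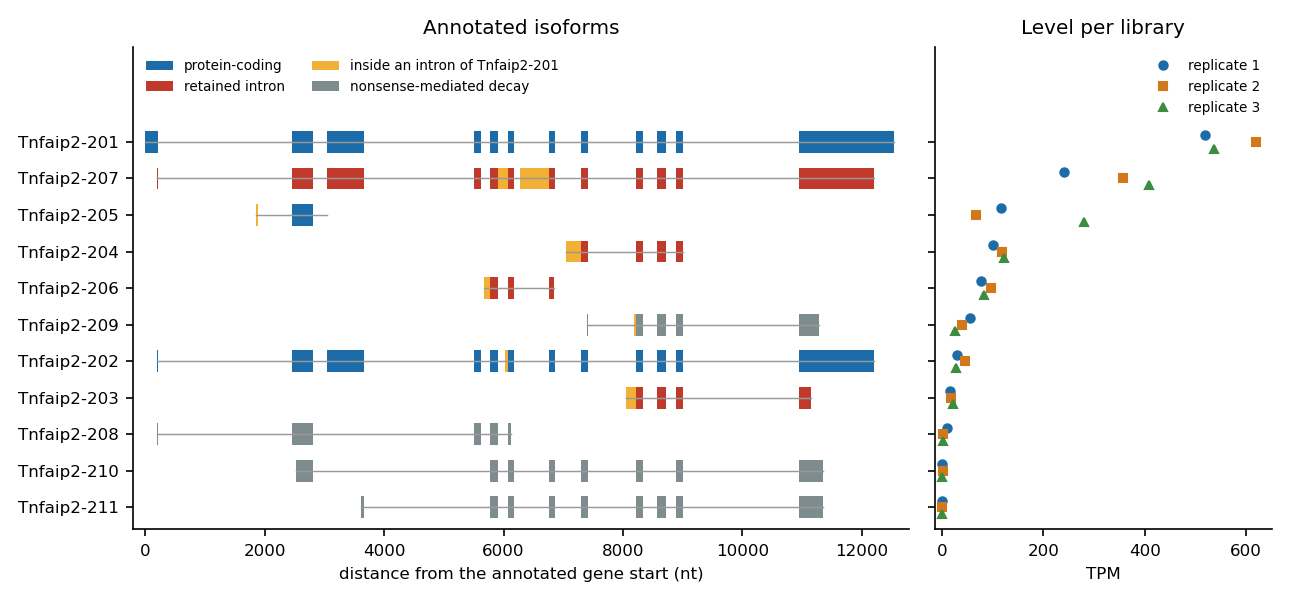
Left, exons of the 11 annotated isoforms by distance from the gene start in nt, coloured by annotated class, with yellow for bases inside introns of Tnfaip2-201. Right, TPM of each isoform in the 3 libraries. Tnfaip2-201 lies at 520 to 621 TPM and Tnfaip2-207 at 241 to 408 TPM.

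The 2 quantifiers ordered the isoforms differently. With the second quantifier Tnfaip2-205 led in each library, with 722, 541 and 1065 TPM, or 42.1 ± 5.93% of the gene's TPM. Tnfaip2-201 then had 358, 349 and 317 TPM (19.5 ± 4.74%) and Tnfaip2-207 had 256, 274 and 347 TPM (16.3 ± 2.19%). Tnfaip2-208 had 156, 81.7 and 154 TPM with it, far above its values of 10.4 TPM or less in the main tables. The mean TPM of Tnfaip2-204 was 112 ± 25.1 with the second quantifier and 113 ± 11.5 with the first, and that of Tnfaip2-206 was 82.2 ± 13.9 and 85.2 ± 9.61. Single libraries differed more, as in replicate 2, where Tnfaip2-206 had 66.3 and 95.8 TPM. In counts Tnfaip2-204 had 2175 ± 399 with the second quantifier and 1329 ± 69.8 with the first, and Tnfaip2-206 had 604 ± 18.9 and 345 ± 29.4.

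In counts, which are not divided by length, Tnfaip2-201 and Tnfaip2-207 held most of the gene with either quantifier. Tnfaip2-201 held 57.7 ± 4.99% of the expected counts and Tnfaip2-207 held 35.3 ± 5.61%. With the second quantifier they held 46.0 ± 5.09% and 40.4 ± 4.62% of the counts, and Tnfaip2-207 was above Tnfaip2-201 in replicate 3 alone. The 6 isoforms under 1000 nt held 30.7 ± 5.39% of the TPM but 3.96 ± 0.793% of the expected counts. With the second quantifier they held 62.3 ± 6.52% of the TPM and 11.3 ± 2.01% of the counts.

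**Figure D3:**
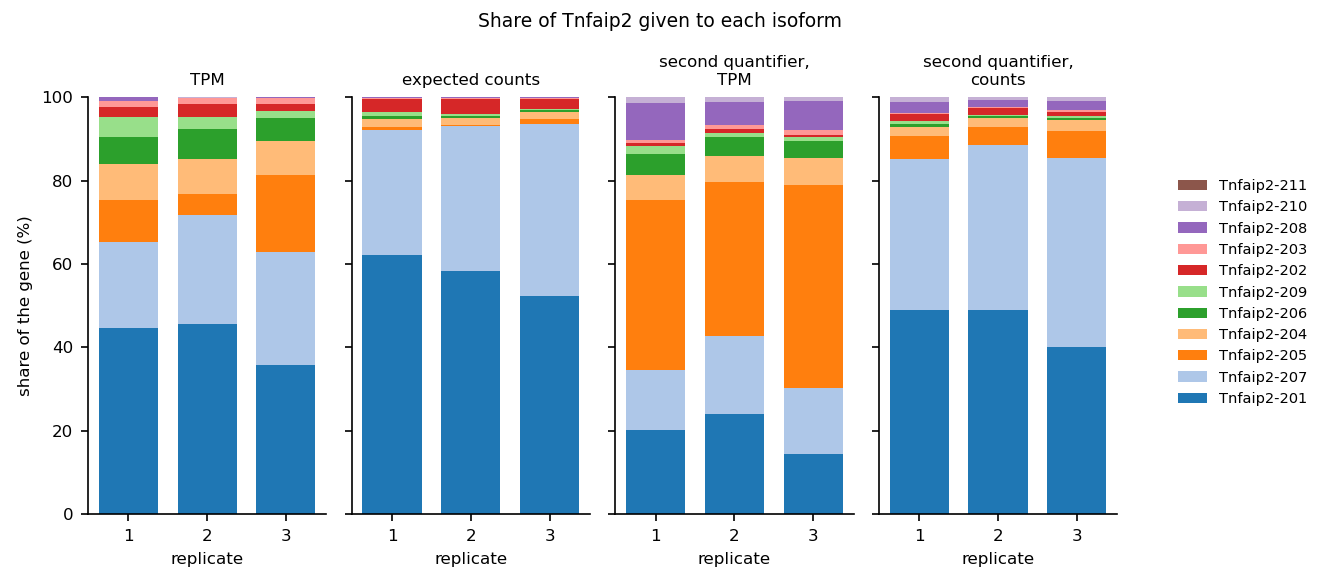
Share of Tnfaip2 given to each isoform in the 3 libraries, in percent, by TPM and by counts of both quantifiers. Tnfaip2-201 and Tnfaip2-207 fill most of each bar by counts, while Tnfaip2-205 takes 42.1% of the TPM with the second quantifier.

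Summed by class, the intron-retaining isoforms held 37.2, 43.2 and 42.1% of the gene's TPM in replicates 1, 2 and 3, and the decay-labelled ones held 5.63, 3.00 and 1.79%. The coding isoforms held 57.1, 53.8 and 56.1%. RNA held on chromatin includes transcripts not yet spliced, which hold the same intron bases as the intron-retaining models. Such transcripts and isoforms that keep an intron cannot be told apart here, in these shares or in the ratio that follows. The log2 ratio of noncoding over coding isoforms, with 0.1 TPM added to each sum, was -0.41, -0.22 and -0.35, so coding isoforms were ahead in 3 of 3 libraries. Its mean was -0.33 ± 0.25 (limma moderated SE), with a Benjamini-Hochberg adjusted p of 0.314 from limma over 7221 protein-coding genes that have isoforms of both kinds. Limma pulls the variance of each gene toward that of the other genes tested. The SD of the 3 ratios of Tnfaip2 itself was 0.0999, smaller than the SE of 0.25. The SE and the adjusted p thus rest mostly on the other genes. By this test the 2 classes of Tnfaip2 were not told apart.

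Across those genes the median ratio was -0.19. At an adjusted p under 0.05, noncoding isoforms were lower in 2209 genes, 30.6% of those tested, and higher in 1581 genes, 21.9%. Tnfaip2 lay near the middle, with 46.1% of genes below it. Leaving out replicate 1 gave 2430 calls in both directions, against 3790 with all libraries, and Tnfaip2 was not called when any one library was left out. The direction of the genome-wide split turned with the second quantifier, which put 1787 genes lower and 3006 higher. For Tnfaip2 it gave -0.73, with a limma adjusted p of 0.0268, past the threshold of 0.05. That value leans on Tnfaip2-205, which held 42.1% of the gene's TPM there, of 62.4% for all coding isoforms. Tnfaip2-201 and Tnfaip2-202 held 19.5% and 0.687%, below the 28.0% of the intron-retaining isoforms. By counts of that quantifier coding isoforms held 56.0, 54.9 and 47.6% in replicates 1, 2 and 3. In the main tables, leaving out coding isoforms with an incomplete end removes Tnfaip2-205 from Tnfaip2. The ratio was then 0.0018 (limma adjusted p = 0.996). That alternative was chosen after seeing the data, and it leaves a mean ratio near 0. It was not run with the second quantifier.

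Between libraries, the coefficient of variation of the TMM-scaled counts of Tnfaip2 was 9.02%. A chi-square test against Poisson noise was past the threshold (Benjamini-Hochberg adjusted p = 2.05e-288 over 14200 genes), as it was for 9769 of these genes, 68.8%. At the depth of Tnfaip2 even a small spread between libraries passes such a test, so nothing particular to the gene is read from it. For protein-coding genes the median coefficient was 21.3%, and 14.1% of 11022 had a lower one than Tnfaip2. Among the 181 coding genes with a mean of at least 10000 counts the median was 15.0%, and 36 were lower. Without replicate 3, the lowest library on this scale, the coefficient of Tnfaip2 was 5.44%, with TMM factors computed anew. That value is thus not on the scale of the 3889 and 3844 CPM given above for replicates 1 and 2, which lie closer together. With the second quantifier the coefficient of Tnfaip2 was 21.6%.

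**Figure D4:**
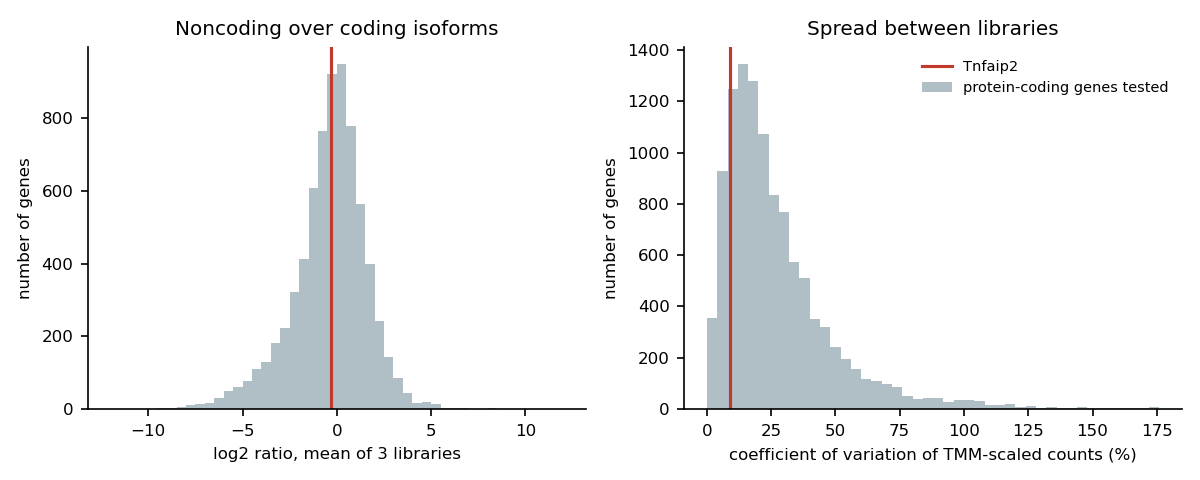
Number of protein-coding genes by log2 ratio of noncoding over coding isoforms (left) and by coefficient of variation of TMM-scaled counts in percent (right). The red line marks Tnfaip2, at -0.33 near the middle on the left and at 9.02% below the median of 21.3% on the right.

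The genes whose pattern over the 3 libraries was most like that of Tnfaip2 were sought among 7161 coding genes with a mean of at least 100 counts. The measure was the root mean square difference of log2(CPM + 0.1), TMM-scaled and centred on each gene's mean. Among the nearest were Pdcd6ip at 0.00328, Zkscan17 at 0.00437, Gna13 at 0.00714 and Ltbr at 0.00813. Pdcd6ip encodes the membrane-scission adaptor ALIX, Zkscan17 a zinc finger protein, Gna13 a G protein alpha subunit and Ltbr the lymphotoxin beta receptor. With 3 libraries such likeness is common: 250 of these genes, 3.49%, lay within 0.05. The levels of these genes were much lower than that of Tnfaip2, between 9.00 TPM for Zkscan17 and 56.9 TPM for Pdcd6ip.

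The related genes were far below Tnfaip2. It was chosen for its high level, so its place above the genes listed here follows from that choice. The lists below were chosen with earlier results of these data known and are described by counts and medians, beside a median of 0.277 TPM over all coding genes, of which 9143 reached 1 TPM. In the family that shares the Sec6-like fold, Exoc3l4 had 16.8, 15.5 and 24.4 TPM (18.9 ± 4.82). Exoc3, the Sec6 subunit of the exocyst itself, had 5.22, 6.70 and 6.92 TPM. Exoc3l stayed between 0.05 and 0.13 TPM, although the second quantifier put its mean at 4.63 TPM, and Exoc3l2 had an expected count of 0 in each library. A count of 0 allows up to 3 counts per library.

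The exocyst, the complex that tethers secretory vesicles to the plasma membrane, was measured in 9 of 9 genes, each at 1 TPM or more, with a median of 21.2 TPM. The highest were Exoc6b (60.8 ± 20.2 TPM), Exoc4 (56.0 ± 7.42 TPM) and Exoc1 (37.5 ± 12.3 TPM), and the lowest was Exoc8 (2.15 ± 0.541 TPM). Of 15 genes for nanotube factors and partners of Ral and Cdc42, 15 reached 1 TPM, with a median of 18.3 TPM. Flna, an actin crosslinker, had 169 ± 36.3 TPM, Myo10, a filopodial motor, had 148 ± 14.9 TPM, and Actr3, of the Arp2/3 complex, had 128 ± 30.7 TPM. Rala, the GTPase with which M-Sec works, was the lowest of them, with 2.82, 4.24 and 3.04 TPM. Cdc42, another GTPase of this group, had 28.6, 65.3 and 38.1 TPM. Replicate 2 was highest for both GTPases, as it was for the macrophage markers Cd68, Cd14 and Csf1r.

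Of 8 genes named Tnfaip, 5 reached 1 TPM. The name goes back to induction by TNF, and those ending in a letter l and a number are named for their likeness to Tnfaip8. Tnfaip3, which encodes the ubiquitin-editing NF-kB inhibitor A20, had 353, 480.5 and 550 TPM (461 ± 100.1). Tnfaip8 had 34.8 ± 8.89 TPM, Tnfaip8l2 had 4.76 ± 0.135 TPM and Tnfaip1 had 3.51 ± 0.855 TPM. Tnfaip6, which encodes a hyaluronan-binding protein, had 0.427 ± 0.060 TPM. Tnfaip8l1 and Tnfaip8l3 were at 0.18 and 0.03 TPM.

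The path from TNF receptors to NF-kB was measured in 17 of 17 genes, with a median of 35.7 TPM. Its highest members were Nfkb1 (263 ± 14.9 TPM) and Nfkb2 (232 ± 24.9 TPM), which encode NF-kB subunits, and the cytokine gene Tnf (206 ± 44.5 TPM). The adaptor gene Tradd was lowest at 6.07 ± 1.26 TPM. The well-known NF-kB-induced genes had the highest median of these lists, 123 TPM over 20 of 20 genes. Its top members were the chemokine genes Cxcl10 (606 ± 155 TPM) and Ccl5 (594 ± 231 TPM) and the transcription factor gene Irf1 (535 ± 94.8 TPM), and its lowest was Plau (5.34 ± 3.22 TPM). None of the 20 reached Tnfaip2 in mean TPM, as holds for every coding gene but Mx1. Noncoding isoforms were ahead in 3 of the 17 tested and coding ones in 5, shares near those over all genes (21.9% and 30.6%).

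**Figure D5:**
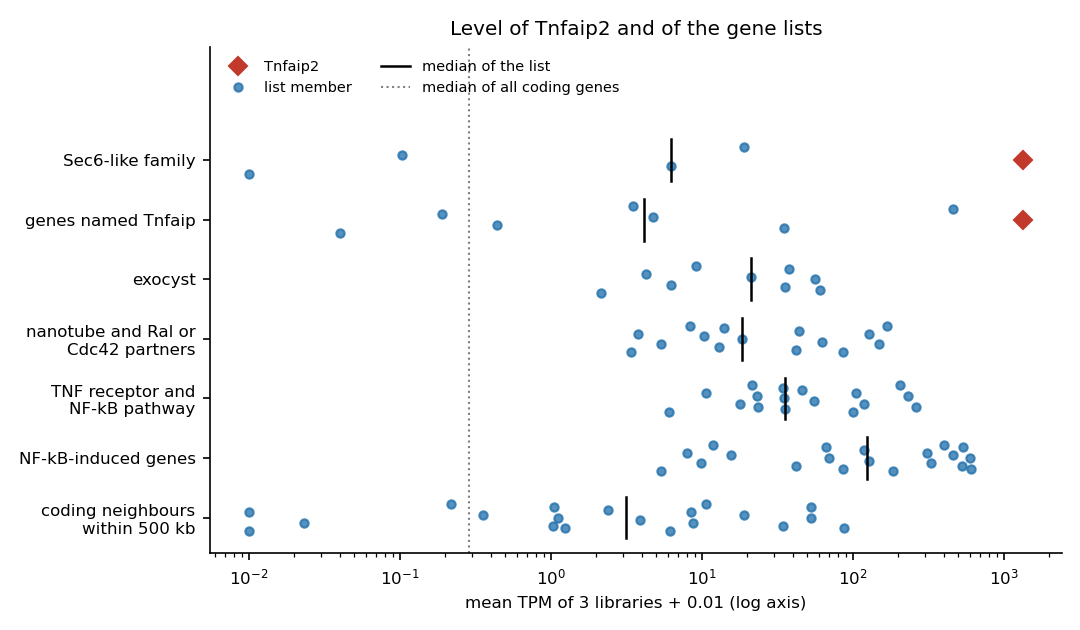
Mean TPM over 3 libraries, with 0.01 added, on a log axis, for members of each list (circles) and Tnfaip2 (diamonds). Lines mark list medians, between 3.14 TPM for the coding neighbours and 123 TPM for the NF-kB-induced genes.

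Tnfaip2 also stood above its surroundings on chromosome 12, which again follows from its being chosen for its level. Within 500 kb on either side lie 20 other coding genes, of which 15 reached 1 TPM, with a median of 3.14 TPM. The highest was Klc1, a kinesin light chain gene, at 87.4 ± 4.11 TPM, followed by the translation factor gene Eif5 at 52.7 ± 1.99 TPM and Cdc42bpb, a kinase gene, at 52.5 ± 2.92 TPM. The nearest on the upstream side was its relative Exoc3l4, 10791 nt away. Traf3, an adaptor of TLR4 and TNF receptor family signalling 175316 nt away, had 8.70 ± 1.07 TPM. Lbhd2 was listed at 0 with both quantifiers. 4930595D18Rik was listed at 0 in the main tables but had 2.21, 2.54 and 5.32 TPM with the second quantifier.

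One annotated gene overlaps Tnfaip2 on the opposite strand. Gm40578, an antisense noncoding gene at chr12:111450405-111500840, shares 314 nt of its 1068 exon nt with the 4984 exon nt of Tnfaip2. It had 76.9, 105 and 124 TPM, or 102 ± 23.9 TPM, on 1282, 1465 and 1842 expected counts. Its mean was above that of Klc1, the highest coding neighbour, but it was below Klc1 in replicate 1, at 76.9 against 91.2 TPM. With the second quantifier it was also below Klc1 in mean TPM, at 98.3 against 123 TPM. The strand setting of the counting is not given in the sources used here, so reads of Tnfaip2 and Gm40578 over the shared bases cannot be told apart. The counts of Gm40578 are few beside the 69873 to 79387 counts of Tnfaip2.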

How the data were processed

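For each of 3 libraries the authors deposited gene and transcript tables of expected counts and TPM, with a posterior standard deviation given as a score, in the column layout of RSEM. The authors also deposited a transcript table of estimated counts and TPM in the layout of kallisto, called the second quantifier here. Per the file headers of the deposited notes, mm10 and GENCODE M21 were used. For tool versions, trimming and strandedness the status is: not given in the sources used here. Transcripts of the second quantifier were summed per gene. Expected counts were rounded for the variation test, which used TMM factors from edgeR 4.0.16. Isoform ratios were tested with limma 3.58.1 in genes with a mean of at least 50 counts, and variation in genes with at least 10, with Benjamini-Hochberg adjustment over all genes tested. Entries that matched no annotated gene, 0.845%, 0.282% and 0.179% of counts in replicates 1, 2 and 3, were left out.

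On simulated isoform ratios for 7221 genes, with normal noise, 90% of shifts of 2 and 100% of shifts of 4 (log2) were recovered, with 15 false calls. No shift as small as the -0.33 of Tnfaip2 was simulated. For variation over 14200 genes, 56% of 1.5-fold and 93% of 3-fold changes were recovered, with 9 false calls. Unchanged genes there had Poisson noise alone, which 68.8% of the real genes exceeded, so those 9 calls do not carry over to these data. Tnfaip2 and the lists were chosen with earlier results of these data known. Named genes are Tnfaip2 and its isoforms, the 5 coding genes on each side in mean TPM, the 5 most alike (1 of them is not reported here), the 3 highest and the lowest of each list, all members of its family and of the Tnfaip-named list, and coding neighbours. Genes named beyond this rule, such as mt-Atp8, Ahnak, Cdc42 and the antisense gene, were chosen after their values were seen. Alternatives tried were the quantifier, the unit, the pseudocount, filters, isoform classes, DESeq2 size factors and leaving out each library.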

Additional observations from a re-analysis of the deposited data

How the results depend on the processing

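The mean level of Tnfaip2, 1345 TPM, was 1808 TPM with the second quantifier, 6146 TPM when the TPM total was given to protein-coding genes alone, and 930 TPM over isoforms of at least 1000 nt. Without single replicates it ranged over 1264 to 1435 TPM. Its rank of 2 was also 2 with the second quantifier and without any one replicate, 5 by expected counts and 6 over isoforms of at least 1000 nt. The share of Tnfaip2-201, 42.0%, was 19.5% with the second quantifier and 57.7% of expected counts, and 40.2 to 45.1% without single replicates. The isoform ratio of -0.33 was -0.73 with the second quantifier and 0.0018 with complete coding isoforms only, and -0.38 to -0.29 without single replicates. For the pseudocount, both count filters and retained-intron isoforms alone, it stayed negative and short of the threshold, with limma adjusted p of 0.204 to 0.352. Genes called for the ratio, 3790 of 7221, numbered 2430 to 3439 of 7221 without single replicates. Otherwise they ranged from 2752 of 5598 for retained-intron isoforms alone to 4793 of 7221 with the second quantifier. With no filter they were 4088 of 11137, and with the lower count filter 4237 of 8909. The coefficient of variation of Tnfaip2, 9.02%, was 5.44 to 11.7% without single replicates, 11.0% with DESeq2 size factors and 21.6% with the second quantifier. TMM factors were computed anew whenever a library was left out. Genes called for variation, 9769 of 14200, numbered from 6687 of 14022 to 7755 of 14178 without single replicates. They were 9656 of 14200 with DESeq2 size factors, 10244 of 23415 with no filter and 13598 of 23319 with the second quantifier. No paired analysis was possible because the series holds 1 group, so no groups can be paired. Isoforms and genes were compared within libraries.

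The main limits are that 3 libraries of 1 condition allow no contrast, that models with shared exons divide reads by estimate, and that depth is ample for the gene but thin for its short isoforms, such as 211 to 981 expected counts for Tnfaip2-205. Isoforms that keep an intron and RNA not yet spliced cannot be told apart. The causes of the differences between quantifiers were not tested.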
